A study of Mus musculus with 53 samples.

Results

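Peaks of SOX2, GATA6, H3K27ac and H3K4me1 were read at 6 genes of the Hippo pathway, Fat1, Amotl2, Tead4, Ccn1, Ccn2 and Ankrd1, of 21938 protein-coding genes in the annotation (GENCODE M21). The 6 were chosen on SOX2 and GATA6 peaks of these data already known, so what follows describes them and tests nothing. A peak counted for a gene when it overlapped the gene body or the 50 kb on either side, and 1494 of the 1997019 peaks in 35 deposited peak lists did so. The lists come from CUT&RUN, which sequences the DNA that a nuclease tethered by an antibody cuts loose around a chromatin protein. All were made from SGGC cells, E14JU mouse embryonic stem cells (ESCs) in which endogenous SOX2 is fused to GFP and endogenous GATA6 to mCherry. SGGC cells were grown in 2iLIF or NACL, media for naive ESCs, or in KOSR medium, from which double-positive (DP) cells with both reporters and SOX2+ cells with GFP alone were sorted, or as naive extra-embryonic endoderm (nEnd), a culture model of primitive endoderm (PrE). SOX2 was profiled in 2iLIF (2 libraries), NACL (2), SOX2+ (3) and DP (3) cells, and GATA6 in DP cells (3) and nEnd (2). Each histone mark had 2 libraries per population and 1 in DP cells.

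Libraries of 2iLIF, NACL and nEnd came from clones B9 and B12, except that both nEnd H3K4me1 libraries came from B9. All KOSR libraries came from clone B12, in experiments A, A1 and B, with the histone marks of DP cells from experiment A alone. The labels do not say that these were independent cultures, so the spread between libraries may be technical. One H3K4me1 and one H3K27ac library carry a title naming DP cells and a source naming SOX2+ cells, and they entered no group. The lists held 1378 to 29623 peaks for SOX2, 1391 to 32510 for GATA6, 13514 to 401853 for H3K27ac and 18627 to 130749 for H3K4me1. In DP cells the lists of experiment B were the shortest for both factors. H3K27ac peaks lay at a transcript start of 7 of 7 pluripotency genes in DP cells and 6 of 7 in SOX2+ cells, and of 3 of 7 in nEnd. They lay at 7 of 8 PrE genes in nEnd, 2 of 8 in DP cells (Pdgfra and Dab2), 2 of 8 in 2iLIF and 0 of 8 in SOX2+ cells. A peak was asked of every library, which meant the single DP list of 76260 peaks but both SOX2+ lists of 13514 and 14722. In NACL they lay at 6 of 8 PrE and 6 of 6 trophoblast genes, and in 2iLIF at 2 of 6 trophoblast genes. The H3K27ac lists covered 15.6% and 15.9% of the genome in NACL and 13.2% and 21.6% in 2iLIF.

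The Hippo pathway is a kinase cascade that reads cell contact, polarity and tension. When it is active, its kinases phosphorylate the coactivators YAP and TAZ, which are then held in the cytoplasm. When it is inactive, YAP and TAZ enter the nucleus and bind DNA through TEAD factors. In the early embryo the pathway separates outer trophectoderm from inner cells, and it later acts in the epiblast. Fat1 encodes a giant cadherin upstream of the pathway and Amotl2 an angiomotin protein of cell junctions that binds YAP. Tead4 encodes a TEAD factor needed for trophectoderm. Ccn1 (Cyr61) and Ccn2 (Ctgf) encode secreted matrix proteins, and Ankrd1 a nuclear ankyrin-repeat protein of muscle and heart. These last 3 genes are widely used YAP/TAZ targets, and Amotl2 is a target as well as a component, so Fat1 and Tead4 stand here as components.

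The regions that carried the strongest or most widely shared peaks are shown as 200 bases on the plus strand of GRCm38 (mm10), centred on the median position of the highest signal. The first 3 had peaks of both factors in DP cells, the next 2 had SOX2 peaks in all 10 SOX2 libraries, and the last 3 had the highest-ranked GATA6 peaks of nEnd. Capitals mark any match on either strand to 1 of 5 kinds of string. They are AGATAA for GATA factors, either CATTGT or else CTTTGT for SOX factors, the string GGAATG for TEAD factors, the octamer ATGCAAAT of POU factors, and TGANTCA for AP-1.
Ccn2 -4.71 kb (chr10:24590657-24590856): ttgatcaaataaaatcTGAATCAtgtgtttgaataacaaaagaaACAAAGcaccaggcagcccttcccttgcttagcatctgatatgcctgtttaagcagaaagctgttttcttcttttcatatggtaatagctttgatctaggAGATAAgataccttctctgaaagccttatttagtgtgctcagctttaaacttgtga
Fat1 +44 kb (chr8:44979391-44979590): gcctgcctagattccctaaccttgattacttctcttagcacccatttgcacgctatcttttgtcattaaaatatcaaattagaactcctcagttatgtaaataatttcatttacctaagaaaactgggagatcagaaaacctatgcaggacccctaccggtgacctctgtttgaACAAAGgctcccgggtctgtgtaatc
Fat1 +58.1 kb (chr8:44993493-44993692): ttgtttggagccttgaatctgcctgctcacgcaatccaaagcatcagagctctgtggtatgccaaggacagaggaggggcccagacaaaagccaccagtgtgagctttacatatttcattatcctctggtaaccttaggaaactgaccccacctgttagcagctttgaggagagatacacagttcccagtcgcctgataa
Ccn1 -1.62 kb (chr3:145651502-145651701): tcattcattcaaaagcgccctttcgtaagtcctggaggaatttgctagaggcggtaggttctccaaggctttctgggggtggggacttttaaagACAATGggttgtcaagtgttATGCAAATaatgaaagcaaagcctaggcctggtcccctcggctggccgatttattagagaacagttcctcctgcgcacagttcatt
Ccn2 -36.9 kb (chr10:24558482-24558681): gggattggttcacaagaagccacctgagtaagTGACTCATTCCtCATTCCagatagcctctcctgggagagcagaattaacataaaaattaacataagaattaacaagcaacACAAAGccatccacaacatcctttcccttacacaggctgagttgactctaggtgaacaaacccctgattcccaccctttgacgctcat
Ccn1 -36.2 kb (chr3:145686091-145686290): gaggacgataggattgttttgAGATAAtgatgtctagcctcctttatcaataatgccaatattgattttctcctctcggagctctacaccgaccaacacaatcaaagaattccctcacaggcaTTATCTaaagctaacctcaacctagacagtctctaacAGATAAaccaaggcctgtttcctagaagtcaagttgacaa
Ccn2 +33.8 kb (chr10:24629153-24629352): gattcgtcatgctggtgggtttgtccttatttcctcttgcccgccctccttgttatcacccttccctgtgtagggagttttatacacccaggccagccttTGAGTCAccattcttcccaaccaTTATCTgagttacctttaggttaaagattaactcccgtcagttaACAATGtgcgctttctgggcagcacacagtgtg
Tead4 +22.6 kb (chr6:128278154-128278353): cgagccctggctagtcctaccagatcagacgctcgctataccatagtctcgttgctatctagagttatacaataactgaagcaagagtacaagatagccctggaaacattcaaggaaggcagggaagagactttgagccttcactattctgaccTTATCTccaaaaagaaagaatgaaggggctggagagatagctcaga
Of the 3 regions with both factors in DP cells, Ccn2 -4.71 kb held a GATA, a SOX and an AP-1 string, Fat1 +44 kb a SOX string and Fat1 +58.1 kb none of the 5 kinds. Over all 986 such regions of the genome, 72.1% held the GATA string, 60.9% a SOX string and 8.32% the AP-1 string. At Fat1 +44 kb the nEnd GATA6 maximum lay closer to the gene start, and the 200 bases around it held 1 AGATAA and 1 TGANTCA. Ccn1 -1.62 kb held a SOX string and the octamer, which was present in 6.09% of the 1100 regions with SOX2 peaks in all 10 libraries. Ccn2 -36.9 kb held 2 TEAD strings, the first overlapping an AP-1 string, and 21.9% of those 1100 regions held a TEAD string. None of the 3 regions with both factors in DP cells held one, against 25.2%, and 3 of the 27 nEnd GATA6 regions at the 6 genes did (11.1%), against 19.2% of all nEnd GATA6 regions. The window of Ccn1 -36.2 kb held 3 AGATAA strings. Over the 27 nEnd GATA6 regions at the 6 genes, 12 held AGATAA (44.4%), against 59.1% of 19749 nEnd GATA6 regions. A match is only a string of letters, and no match says nothing of the factor.

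Promoter sequences in the RefSeq table (GRCm38.p6) were matched for Fat1, Amotl2, Ccn1 and Ankrd1. All 4 held the TEAD string in the 250 bases before the RefSeq start, as did 12.6% of 32851 promoters, and Ankrd1 held 2 copies. The RefSeq starts of Fat1, Amotl2 and Ankrd1 lie inside the GENCODE gene bodies, so for these 3 the 250 bases are part of the annotated gene. That of Ccn1 is shown on its own strand with the TEAD string in capitals, because the classical YAP/TAZ targets are read through such strings.
Ccn1 promoter (chr3:145649986-145650235, minus strand): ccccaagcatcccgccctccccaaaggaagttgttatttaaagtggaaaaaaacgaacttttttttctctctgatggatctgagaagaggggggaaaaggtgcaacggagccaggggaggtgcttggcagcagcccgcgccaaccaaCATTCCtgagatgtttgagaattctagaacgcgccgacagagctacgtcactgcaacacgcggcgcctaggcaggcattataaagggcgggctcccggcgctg
Tead4 and Ccn2 had no entry.

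SOX2 and GATA6 peaks of the 15 factor libraries merged into 82 regions at the 6 genes, of which 34 held a peak of 1 library only, against 40% of 72577 regions over the genome. A region was kept when at least 2 libraries of the same factor and population had a peak there, and 45 were kept. Of these, 16 had SOX2 peaks only, 22 GATA6 peaks only and 7 peaks of both factors, a split near that of all 38375 kept regions (41.1%, 43.3% and 15.6%). Fat1 had 9 kept regions, all in introns, 6 with SOX2 only and 3 with both factors. Ccn1 and Ccn2 had 8 each, of which 6 each had GATA6 only. Tead4 had 2 with SOX2 only and 5 with GATA6 only, Ankrd1 3 and 4. Amotl2 had 3 with SOX2 only, 1 with GATA6 only and 2 with both. The 2 factors thus shared regions at Fat1, Amotl2, Ccn1 and Ccn2 and at neither Tead4 nor Ankrd1. Signal cannot be compared between these lists and no depth is known, so strength is given only as a peak's rank by max signal within its library, rank 1 being the highest.

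**Figure D1:**
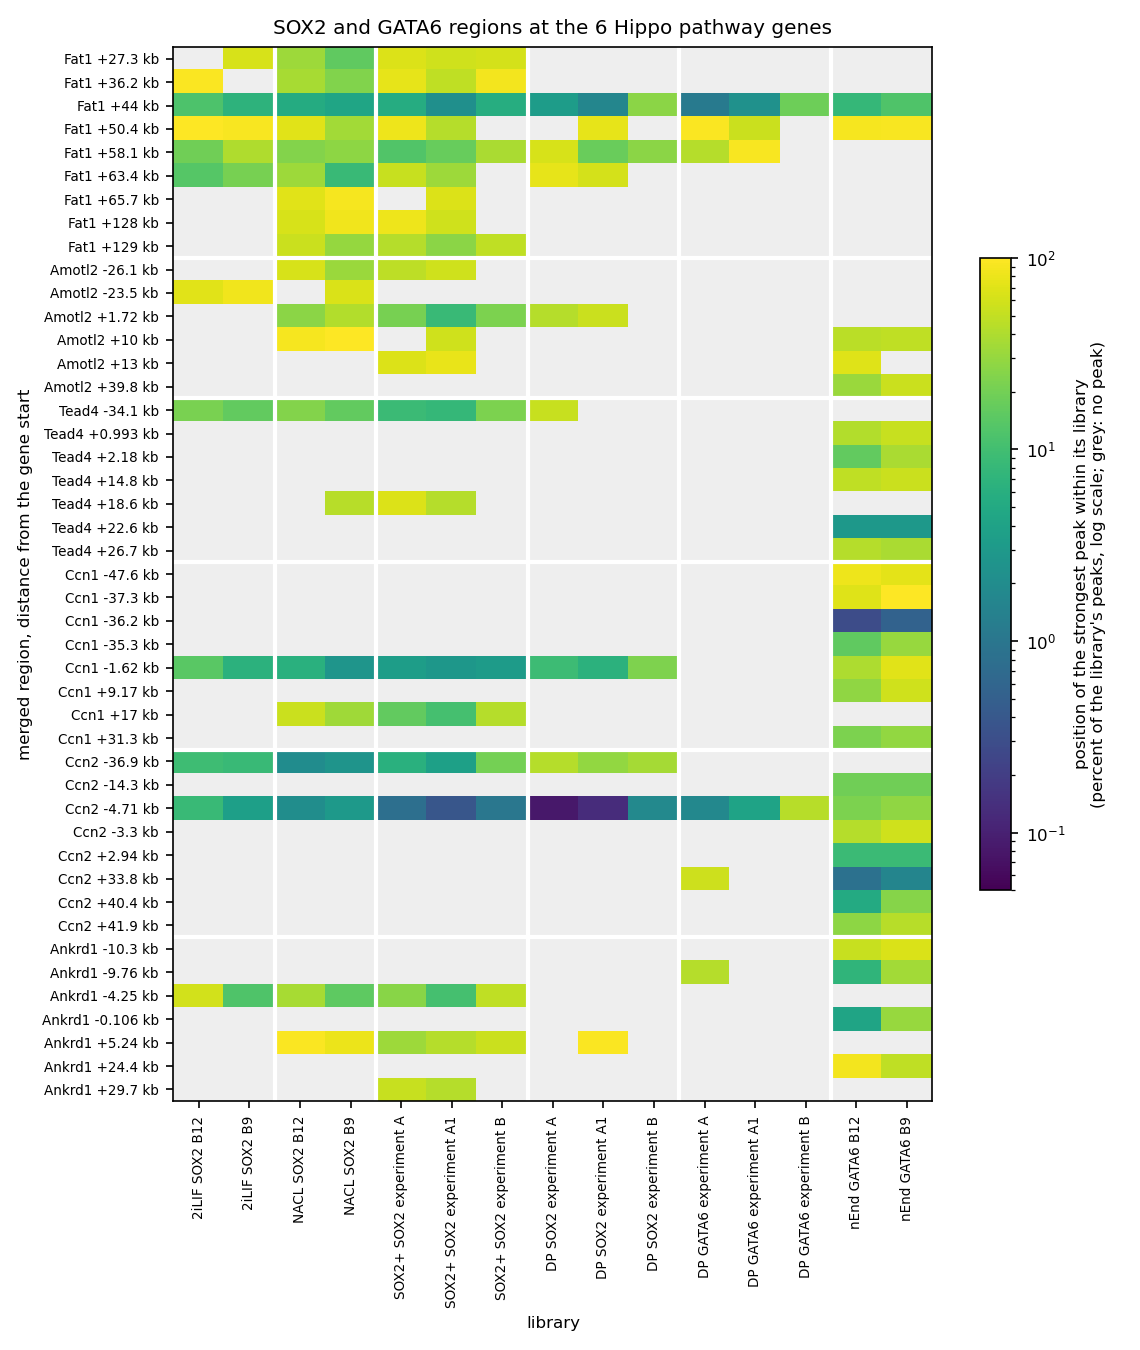
Each row is one of the 45 kept regions, named by gene and distance from the gene start in kb, and each column one of the 15 SOX2 or GATA6 libraries. Colour gives the position of the region's strongest peak within its library as a percent of that library's peaks on a log scale, and grey marks no peak. Ccn2 -4.71 kb and Fat1 +44 kb are the rows filled in all 15 columns, and most nEnd GATA6 rows are grey in every SOX2 column.

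In DP cells, 4 of the 6 genes had a SOX2 region, 2 a GATA6 region and 2 a region with both. Over all protein-coding genes the shares were 20.7% for SOX2, 20.5% for GATA6 and 6.64% for both. All 6 genes had a SOX2 region in 2iLIF, NACL and SOX2+ cells, against 33.9%, 51.5% and 52.3% of all genes, and all 6 had a GATA6 region in nEnd, against 61%. Peaks in all 10 SOX2 libraries were found at Fat1, Ccn1 and Ccn2, against 7.2% of genes, and 1.52% of the 72577 regions had them. A region with peaks in all 15 factor libraries was found at Fat1 and Ccn2, against 0.552% of genes. There were 72 such regions among 72577 in the genome (0.0992%), 1 at each of these genes. The genes were picked with these factor peaks known, and the shares only place them.

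Fat1 (ENSMUSG00000070047, chr8:44935447-45052257, plus strand) is the gene that codes for the cadherin, and its window held the most SOX2 regions of the 6. There were 4 in 2iLIF, 8 in NACL, 8 in SOX2+ cells and 3 in DP cells. At least as many regions were found at 1.82%, 0.693%, 0.871% and 1.63% of all genes in the same populations. The window of Fat1 is 217 kb long, a length reached by 9.23% of genes, and the median window is 117 kb. Distances are from the annotated gene start, while the RefSeq promoter of Fat1 ends at position 44950207, inside the gene body.

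The region Fat1 +44 kb (chr8:44979060-44979863) lies in an intron, 28846 bp from the nearest annotated transcript start. In DP cells its SOX2 peak ranked 164 of 4859, 86 of 5320 and 366 of 1378 in experiments A, A1 and B. Its GATA6 peak there ranked 94 of 8316, 89 of 3821 and 260 of 1391. Experiments A and A1 thus placed both factors within the top 3.38% of peaks, and experiment B between 18.7% and 26.6%. Ordered by total signal instead, experiment B lay at 12.8% for SOX2 and 2.73% for GATA6. The DP means then went from 10.5% ± 13.9 (SD, n = 3) to 5.33% ± 6.45 for SOX2 and from 7.38% ± 9.81 to 1.14% ± 1.39 for GATA6. Those of SOX2 in SOX2+ cells went from 4.49% to 2.13%, in 2iLIF from 9.44% to 3.78% and in NACL from 4.85% to 1.73%. In SOX2+ cells the SOX2 ranks were 942 of 16819, 449 of 20609 and 598 of 10513. In 2iLIF they were 911 of 13177 in B9 and 982 of 8203 in B12, and in NACL 1277 of 29623 and 923 of 17111. The GATA6 peak of nEnd ranked 2972 of 24223 and 2583 of 32510. As a share of the list, the SOX2 peak lay at 1.62% to 26.6% in DP cells and 2.18% to 5.69% in SOX2+ cells, so the 2 sorted populations overlapped. Within an experiment the DP peak lay, by share, nearer the top than the SOX2+ peak in A and A1 and further down in B, and by total signal in A alone. By rank number the DP peak, in the shorter lists, lay nearer the top in A, A1 and B. Every labelled H3K27ac library and 8 of 9 H3K4me1 libraries had a peak over the region, the exception being the nEnd H3K4me1 library with 18627 peaks.

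Fat1 +58.1 kb (chr8:44993309-44994001) had SOX2 peaks in all 10 SOX2 libraries. In DP cells they ranked 3084 of 4859, 932 of 5320 and 366 of 1378, or 63.5%, 17.5% and 26.6% of the lists, against 12.6%, 16.9% and 38% in SOX2+ cells of the same experiments. The DP peak lay nearer the top by share in experiment B alone, and by total signal in none. By rank number, in lists of unequal length, it lay nearer the top in A1 and B. GATA6 was present in DP experiments A and A1, at ranks 3547 of 8316 and 3505 of 3821, and in neither nEnd library. It was the only one of the 4 DP GATA6 regions at the 6 genes without nEnd GATA6. Fat1 +50.4 kb (chr8:44985182-44986432) had GATA6 peaks in the same DP experiments and in both nEnd libraries, at 54.1% to 94.6% of the lists, and a SOX2 peak in 1 of 3 DP libraries. Fat1 +63.4 kb had SOX2 peaks in 2 of 3 DP libraries and no GATA6. The other 5 kept regions, at +27.3, +36.2, +65.7, +128 and +129 kb, had SOX2 peaks in NACL or SOX2+ cells and none in DP cells, and the last 2 lie in an intron of AY512931 beyond the gene.

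Amotl2 (ENSMUSG00000032531, chr9:102716672-102733418, plus strand) codes for the junction protein that binds YAP. Its SOX2 region nearest a start, Amotl2 +1.72 kb (chr9:102718193-102718586), overlaps a transcript start and had SOX2 peaks in 2 of 2 NACL, 3 of 3 SOX2+, 2 of 3 DP and 0 of 2 2iLIF libraries. In SOX2+ cells the peak ranked 3514 of 16819, 1754 of 20609 and 2377 of 10513. In DP cells it ranked 2110 of 4859 and 2855 of 5320 in experiments A and A1 and was missing in B. GATA6 peaks at Amotl2 came from nEnd only, 2 in B9 and 10 in B12. Both libraries shared those at +10 kb in an intron (11805 of 24223 and 14766 of 32510) and at +39.8 kb (13361 of 24223 and 10453 of 32510). These ranks lay at 32.2% to 55.2% of the lists. The strongest of the others, at +46 kb in B12 alone, ranked 6589 of 32510 (20.3%). At +10 kb SOX2 was listed in both NACL libraries at 90.5% and 97.2% of the list and in SOX2+ experiment A1 at 57.3%.

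Tead4 (ENSMUSG00000030353, chr6:128224288-128300823, minus strand) codes for the DNA-binding partner of YAP. It had no kept region of either factor in DP cells. Its one SOX2 region shared by all pluripotent populations was Tead4 -34.1 kb (chr6:128334443-128335088), in an intron of the neighbouring gene Tulp3. There the SOX2 peak ranked 1506 of 16819, 1642 of 20609 and 2377 of 10513 in SOX2+ cells, and in DP cells only experiment A had a peak, at 2536 of 4859. A further SOX2 region, Tead4 +18.6 kb, had peaks in 2 of 3 SOX2+ libraries and 1 of 2 NACL libraries. In nEnd, 5 GATA6 regions lay in Tead4 introns, a number reached by 11.1% of genes, in a window of 177 kb, a length reached by 15.2%. The strongest, Tead4 +22.6 kb (chr6:128278072-128278524), ranked 701 of 24223 and 940 of 32510. The others, at +0.993, +2.18, +14.8 and +26.7 kb, ranked lower, and none of the 5 overlapped a SOX2 peak of any library.

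Ccn1 (ENSMUSG00000028195, chr3:145646976-145649981, minus strand) codes for a secreted matrix protein. Ccn1 -1.62 kb (chr3:145651334-145652340), in an exon of the gene model Gm17501 overlapping an annotated transcript start, had SOX2 peaks in all 10 libraries. In SOX2+ cells they ranked 573 of 16819, 581 of 20609 and 342 of 10513, within 2.82% to 3.41% of the lists. In DP cells the ranks were 451 of 4859, 352 of 5320 and 314 of 1378, or 6.62% to 22.8%. The order of the 2 sorted populations depends on the scale, because the DP lists were shorter. By share the DP peak lay further down than the SOX2+ peak of the same experiment in 3 of 3 experiments, and by rank number nearer the top in 3 of 3. Ordered by total signal instead, the SOX2 peak lay at a mean of 25% ± 18.8 (SD, n = 3) of the DP lists rather than 12.9% ± 8.67. No DP library had GATA6 there, and in nEnd both did, at ranks 17096 of 24223 and 12889 of 32510. Ccn1 +17 kb had SOX2 in NACL and SOX2+ cells and in no DP or 2iLIF library.

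The nEnd GATA6 regions of Ccn1 numbered 7, a number reached by 4.96% of genes. Among them Ccn1 -36.2 kb (chr3:145685869-145686382), 33775 bp from the nearest annotated start, had the highest nEnd GATA6 rank of any region at the 6 genes, 131 of 24223 in B9 and 95 of 32510 in B12. It had a peak in no SOX2 library and in no DP GATA6 library. H3K27ac was present in 2 of 2 nEnd libraries and 1 of 2 NACL libraries, and H3K4me1 in 2 of 2 nEnd libraries and no other. The flanking regions Ccn1 -35.3 kb and Ccn1 -37.3 kb also had nEnd GATA6 and no SOX2.

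Ccn2 (ENSMUSG00000019997, chr10:24595442-24598683, plus strand) codes for the related secreted protein. Ccn2 -4.71 kb (chr10:24590360-24591266), in an intron of the gene model Gm15270 and 2492 bp from the nearest annotated start, had peaks in all 15 factor libraries. In DP cells the SOX2 peak ranked 4 of 4859, 7 of 5320 and 25 of 1378, the highest ranks of any region at the 6 genes. In SOX2+ cells it ranked 136 of 16819, 78 of 20609 and 107 of 10513. In 2iLIF it ranked 486 of 13177 and 712 of 8203, and in NACL 887 of 29623 and 354 of 17111. The ranks of DP cells were lower numbers than those of every other SOX2 library, but as shares of the list they ranged from 0.0823% to 1.81% and overlapped the 0.378% to 1.02% of SOX2+ cells. The DP share was the smaller one in experiments A (0.0823% against 0.809%) and A1 (0.132% against 0.378%) and the larger in B (1.81% against 1.02%). GATA6 ranked 145 of 8316, 159 of 3821 and 621 of 1391 in DP cells and 6850 of 24223 and 7278 of 32510 in nEnd. All 9 labelled H3K4me1 libraries had a peak there, as did every labelled H3K27ac library except SOX2+ experiment B.

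Ccn2 -36.9 kb (chr10:24558365-24558893) had SOX2 in all 10 libraries and GATA6 in none. Its SOX2 peak lay between 1.99% and 9.31% of the lists of 2iLIF and NACL and between 29.5% and 43.4% in DP cells, so these groups did not overlap in shares of lists that differ in length. SOX2+ libraries lay at 3.74% to 20.7%, overlapping the naive media and not DP cells. Ordered by total signal, the DP peaks of experiments A, A1 and B lay further down, at 59.6%, 57.5% and 79.4%. Those of SOX2+ cells then lay at 13.4%, 9.29% and 28.8%. By rank, the DP peaks were 2110 of 4859, 1569 of 5320 and 493 of 1378 and those of SOX2+ cells 1048 of 16819, 770 of 20609 and 2171 of 10513, so that in experiment B the order by rank is the reverse of that by share. In nEnd, Ccn2 had 7 GATA6 regions, the same number as Ccn1. The strongest, Ccn2 +33.8 kb (chr10:24629000-24629809), is intergenic between Ccn2 and Enpp1 and ranked 387 of 24223 and 276 of 32510, with a peak at 4692 of 8316 in DP experiment A alone. Ccn2 +2.94 kb overlaps an untranslated part of the gene and ranked 2138 and 2881 in the same nEnd lists.

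Ankrd1 (ENSMUSG00000024803, chr19:36111961-36120099, minus strand) codes for the ankyrin-repeat protein. It had no kept region in DP cells. SOX2 lay at Ankrd1 -4.25 kb (chr19:36123921-36124698) in all 7 libraries of 2iLIF, NACL and SOX2+ cells, at 10.6% (2188 of 20609 in SOX2+ experiment A1) to 60% (4923 of 8203 in 2iLIF B12) of the list, and in no DP library. Ankrd1 +5.24 kb had SOX2 in NACL and SOX2+ cells and, at 95% of the list, in DP experiment A1. In nEnd a GATA6 region overlapped the start site (chr19:36119753-36120461), at ranks 7567 of 24223 in B9 and 1385 of 32510 in B12. Tead4 and Ankrd1 were the 2 genes with nEnd GATA6 within 1 kb of one of their own starts in both libraries. Ankrd1 -9.76 kb had GATA6 in both nEnd libraries and in DP experiment A alone.

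**Figure D2:**
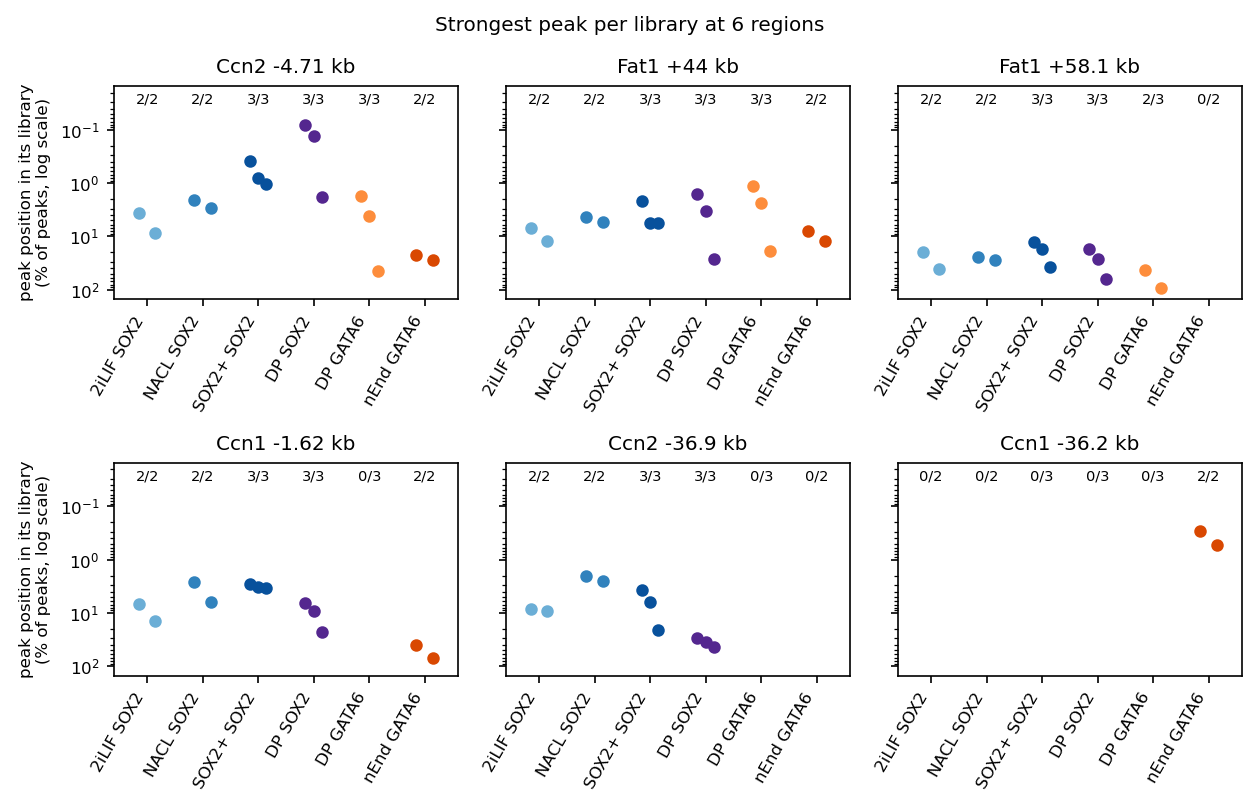
Each panel is one region, with the position of its strongest peak in each library as a percent of that library's peaks on a log axis, strongest on top, for the 6 groups of SOX2 and GATA6 libraries. Fractions above give how many libraries had a peak. At Ccn2 -4.71 kb the DP SOX2 points reach 0.0823%, at Ccn2 -36.9 kb they lie below those of 2iLIF and NACL, and Ccn1 -36.2 kb has nEnd points only.

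The DP lists are shorter than those of SOX2+ cells, and a bulk list cannot tell fewer cells with a bound site from less binding per cell. Of the 20 SOX2+ SOX2 regions at the 6 genes, 7 had a SOX2 peak in at least 2 of 3 DP libraries, against 20.9% over all 14439 such regions. Another 10 had none in any DP library, against 65.9%. All 7 DP SOX2 regions had SOX2 in at least 2 of 3 SOX2+ libraries, against 84.7% of 3588. None of the 7 was absent from all libraries of 2iLIF, NACL and SOX2+ cells, against 9.09%. Of these 7, 3 had DP GATA6, at Fat1 and Ccn2, against 27.4%. All 4 DP GATA6 regions coincided with SOX2 of SOX2+ cells, against 20.5% of 3484, and 3 of 4 with GATA6 of both nEnd libraries, against 64.1%. The count of DP GATA6 regions fell from 4 to 2 without the GATA6 library of experiment A, and likewise without that of A1. The count of SOX2+ SOX2 regions fell from 20 to 13 without the SOX2 library of experiment A, and likewise without that of A1. With every list cut to the same number of its strongest peaks (1378 for SOX2, 1391 for GATA6), there were 4 SOX2 regions in each of DP, SOX2+, 2iLIF and NACL cells, 2 GATA6 regions in DP cells and 3 in nEnd. With so few regions, these counts describe Fat1 and Ccn2 more than a group of 6.

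GATA6 in nEnd was found at 27 regions of the 6 genes. Of these, 3 had DP GATA6 in at least 2 libraries, at Fat1 +44 kb, Fat1 +50.4 kb and Ccn2 -4.71 kb, a share close to the 11.2% over 19749 regions. Another 5 had SOX2 in at least 2 libraries, against 14.1%, and 22 had no SOX2 peak of any library, against 80.6%, so both counts were near those of all nEnd GATA6 regions. nEnd regions with both histone marks held 19 of the 27, against 48.8%. Among SOX2+ SOX2 regions, 8 of 20 lay at a region with both marks in SOX2+ cells, against 23.3%. Those were at Fat1, Amotl2, Tead4, Ccn1 and Ccn2.

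**Figure D3:**
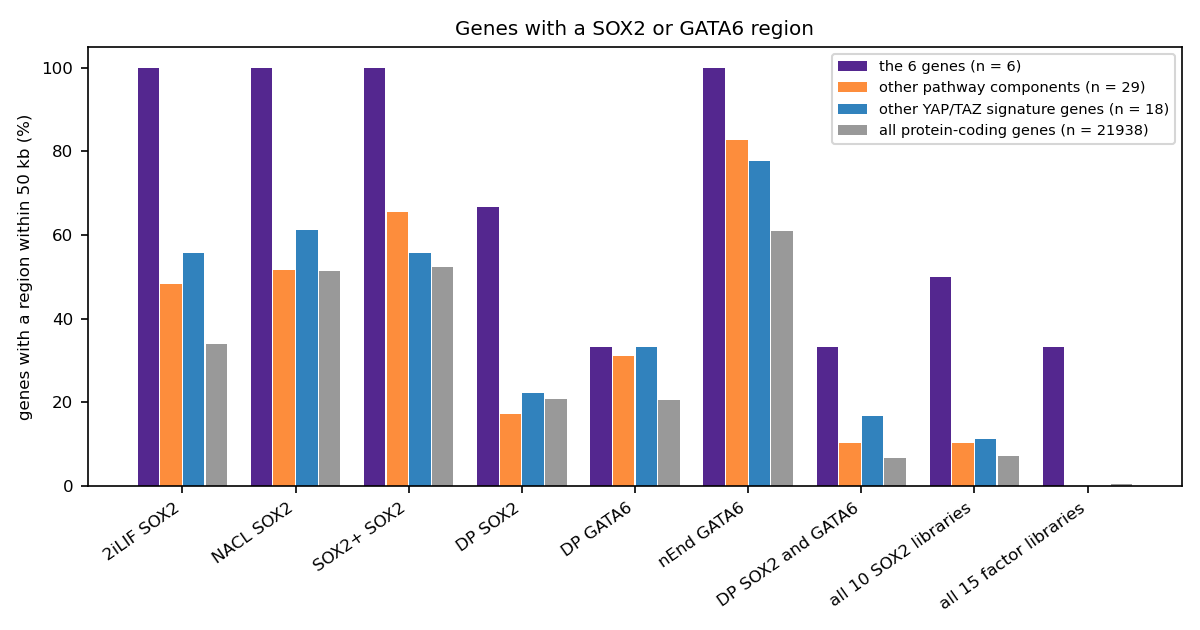
Bars give the percent of genes with a region of the kind named on the horizontal axis within the gene body or 50 kb on either side, for the 6 genes, 29 other pathway components, 18 other genes of a YAP/TAZ signature and all 21938 protein-coding genes. The bars of the 6 are tallest or tied in each kind, and the 2 lists of other genes lie near all genes for DP SOX2 (17.2% and 22.2% against 20.7%).

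The other members of the pathway were counted in the same way. Among 29 components that are not one of the 6, 19 had a SOX2 region in SOX2+ cells (65.5%, against 52.3% of all genes) and 5 in DP cells (17.2%, against 20.7%). GATA6 was found at 9 in DP cells (31%, against 20.5%) and at 24 in nEnd (82.8%, against 61%), and both factors in DP cells at 3 (10.3%, against 6.64%). Those 3 were Tead1, another TEAD factor, Wwtr1, which encodes TAZ, and Wwc2, a scaffold of the kinases. Among 18 other genes of a 22-gene YAP/TAZ target signature, 4 had SOX2 in DP cells (22.2%), 6 GATA6 in DP cells (33.3%) and 14 GATA6 in nEnd (77.8%). Both factors in DP cells were found at 3 of them (16.7%), F3, Nt5e and Rbms3. In both lists the share with DP SOX2 was near that of all genes, and those with GATA6 or both factors were above it. These shares rest on few genes, and Lats2 and Ptpn14 stand in both lists. Window lengths of the listed genes were not compared with those of all genes, and a longer window can hold more regions. None of the other genes in either list had a region with peaks in all 15 libraries.

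At Tead1 the shared region (chr7:112691049-112691819, 12.1 kb into the gene) had SOX2 in all 10 libraries, at 0.7% to 3.99% of the DP lists. GATA6 was present there in both nEnd libraries and in 2 of 3 DP libraries, at 42.7% and 47.9% of the DP lists. At Wwtr1 it lay 4.88 kb from the gene start (chr3:57570849-57571221), with SOX2 at 7.16% to 12% of 2 DP lists and in no library of 2iLIF, NACL or SOX2+ cells. At F3, which encodes tissue factor, SOX2 was likewise found in 2 DP libraries only (chr3:121736218-121736592), at 60.5% and 63.5%. At Nt5e, which encodes an ectonucleotidase, SOX2 lay at 0.556% to 7.18% of the DP lists, with GATA6 in 3 of 3 DP libraries and 1 of 2 nEnd libraries. At Wwc2 SOX2 lay at 68.4% and 98.6% of 2 DP lists, and at Rbms3 at 13.4% to 70.5% of the DP lists. In the DP lists with a GATA6 peak, that peak lay at 26.1% to 38.8% at Wwtr1 and 49.1% to 66.6% at F3. It lay at 6.24% to 31.3% at Nt5e, 37.3% to 91.7% at Wwc2 and 56.4% to 80.9% at Rbms3. Fat1 and Ccn2 therefore shared with Tead1, Wwc2, Nt5e and Rbms3 a SOX2 peak in at least 9 of 10 SOX2 libraries, while Wwtr1 and F3 had SOX2 in DP cells alone.

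H3K27ac, a mark of active promoters and enhancers, lay within 1 kb of a transcript start of Fat1, Amotl2, Tead4, Ccn1 and Ccn2 in both libraries of 2iLIF and NACL, against 57.2% and 58.3% of genes, and in the DP library, against 41.4%. In both SOX2+ libraries it lay at Amotl2 and Ccn2 only, against 16.2%, and at Fat1, Tead4 and Ccn1 in 1 of 2. In both nEnd libraries it lay at Amotl2, Tead4, Ccn1 and Ccn2, against 39.4%, and at no start of Fat1. Ankrd1 had H3K27ac at its start in 1 of 2 nEnd libraries and nowhere else. H3K4me1, which marks enhancers and flanks promoters, lay at a start of all 6 genes in the DP library, against 68.3%, and at all but Ankrd1 in both SOX2+ libraries, against 40.6%. It lay at Amotl2 and Tead4 in both libraries of 2iLIF and NACL, against 14.9% and 11.6%, and at these genes and Ccn2 in both of nEnd, against 13%.

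A region with both marks, meaning an H3K27ac region of 2 libraries that overlapped an H3K4me1 region of 2 libraries somewhere along its length, was present at 5 of the 6 genes in each of 2iLIF, NACL, SOX2+ cells and nEnd, against 65.1%, 55.3%, 37% and 47.5% of all genes. Ankrd1 had none in any of the 4 populations. At Fat1, regions with both marks covered 31.1% of the window in 2iLIF, 19.9% in NACL, 5.51% in SOX2+ cells and 7.25% in nEnd, in lists of very different length. Fat1 +44 kb and Fat1 +58.1 kb overlapped one in all 4 populations, although only 1 of 2 nEnd H3K4me1 libraries had a peak at these sites. Elsewhere at Fat1 the regions differed, with one at the gene start in 2iLIF alone. One from 127 to 130 kb was found in SOX2+ cells, and 2iLIF had one next to it, from 130 to 133 kb. H3K27ac lay at Fat1 +128 kb and Fat1 +129 kb in 2 of 2 libraries of 2iLIF and of NACL as well. Ccn2 -4.71 kb also overlapped one in all 4, but in SOX2+ cells only at its edge, with H3K27ac in 1 of 2 libraries. Ccn1 -1.62 kb overlapped a long one in nEnd, from -6.62 to 12 kb, yet neither nEnd H3K4me1 library had a peak at the site itself. In 2iLIF and SOX2+ cells the site had H3K4me1 in 2 of 2 libraries and H3K27ac in 1 of 2, and in NACL the reverse. Regions with both marks around Ccn1 -36.2 kb and Ccn2 +33.8 kb were found in nEnd only.

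Compared with the share of the genome that each list covers, the windows of Amotl2, Tead4, Ccn1 and Ccn2 were covered more densely by H3K27ac in 9 of 9 labelled libraries, as were the windows of 27.7% of all genes. Amotl2 lay above the genome share by a factor of 1.96 to 8.45, highest in nEnd, where H3K27ac covered 42.5% and 48.6% of its window. Ccn1 was covered to 25.9% and 44.3% in nEnd and to 21% and 28.6% in 2iLIF, whose lists covered 13.2% and 21.6% of the genome against 5.03% and 6.43% in nEnd. Fat1 went the other way. Its window was covered 5.8 and 7.08 times as densely as the genome in SOX2+ cells and 0.667 and 1.64 times in nEnd. Ankrd1 lay above the genome share in 4 of 9 libraries, both SOX2+ and both nEnd ones, at 1.14 to 2.6 times. For H3K4me1 the ratio was above 1 in 9 of 9 libraries at Amotl2, Tead4, Ccn1 and Ccn2, as at 25.2% of all genes, in 8 of 9 at Fat1 and in 1 of 9 at Ankrd1.

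**Figure D4:**
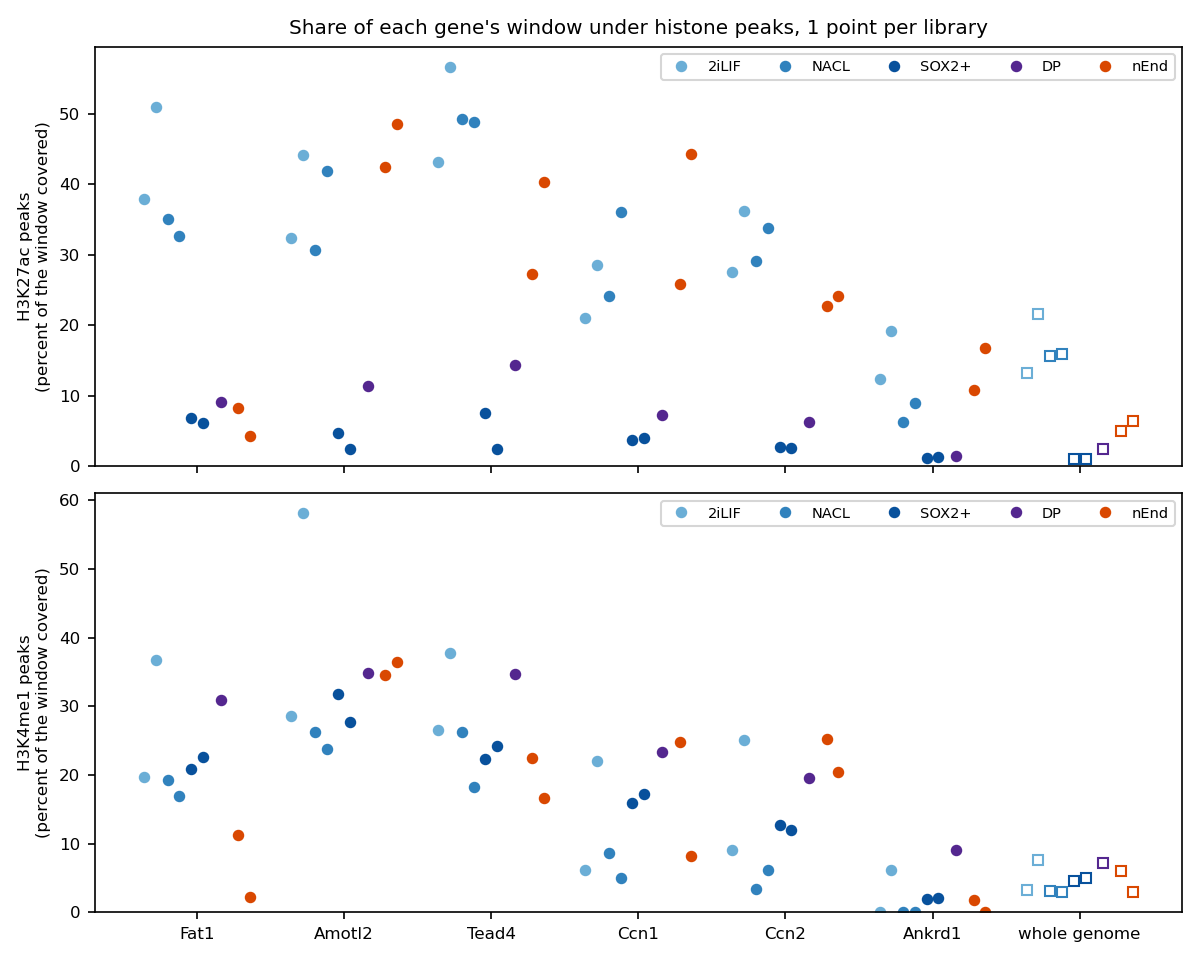
Points give the percent of each gene's window under H3K27ac (top) or H3K4me1 (bottom) peaks, 1 point per labelled library, coloured by population, with the percent of the whole genome under the same lists as open squares at the right. Fat1 has low nEnd points in both panels, and Ankrd1 has the lowest points of the 6 genes in nearly every library.

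The strongest peak in a gene's window, as its percentile within each of the 33 labelled libraries (0 where there was none), was also compared between genes, as Pearson's r. The libraries share clones and lists of like length, so r only orders the genes. Genes whose windows overlap those of the 6 were left out. The most alike were Ppp1r9a (r = 0.9), Zfp518b and Chd9 for Fat1, Ccl25 (0.97), Tyw1 and Rnf224 for Amotl2, and Smyd2, Olfml3 and Inpp5b (0.96 each) for Tead4. They were Olfr1368 (0.94), Gucy2c and Col8a2 for Ccn1, Trpv3 (0.82), Aspa and Slc38a1 for Ccn2, and Ccng2 (0.92), Chek1 and Zfyve26 for Ankrd1. Among the 6 themselves, r was highest between Amotl2 and Tead4, at 0.8, and was 0.58 between Ccn1 and Ankrd1, 0.56 between Ccn1 and Tead4, 0.53 between Ccn1 and Ccn2 and -0.02 between Ccn2 and Amotl2. Fat1 was like none of the other 5, with r from -0.03 to 0.21.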

How the data were processed

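SOX2, GATA6, H3K27ac and H3K4me1 were profiled by CUT&RUN in SGGC ESCs. Per the submitters' processing notes, the authors used cutadapt 1.18, Bowtie2 2.3.4.1, SAMtools 1.9, Picard 2.9.1, bedtools 2.27.1, deepTools 3.2.0 and SEACR. Peaks were called per library against IgG on mm10 (GRCm38). The deposited lists give each peak's total signal and max signal, both coverage, scaled per library. File names point to SEACR's relaxed setting for the marks and the stringent one for factors, the reverse of the methods. No depth is given, and the number of peaks per library limits what a library can show.

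Peaks were ranked within a library by max signal, ties sharing the best rank. Overlap meant at least 1 bp. Overlapping peaks were merged, and a region of a factor and population was kept with peaks of at least 2 libraries. A region with both marks was a kept H3K27ac region overlapping a kept H3K4me1 region, and no such region was defined for DP cells, which had 1 library per mark. Start sites were transcript starts of GENCODE M21 with 1 kb on either side. Distances run from the gene start to the median position of the highest signal of a region's peaks. Sequence was read from GRCm38.p6 and promoters from RefSeq. Scripts used Python 3.11.15, numpy 2.4.6 and pandas 2.3.3, and merging was tested on simulated peak lists.

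Groups came from the labels. The source name of NACL SOX2 B12 gives no medium, which was taken from its title, and the meaning of sub02 in the title of DP GATA6 experiment A is not stated. The 2 histone libraries with conflicting labels entered no group, and IgG samples were not analysed here. The genes and the gene lists (32 pathway components, a 22-gene YAP/TAZ target signature and cell type markers) were chosen with earlier results of these data known, so no test was made and shares stand beside those of all genes or regions. Genes of the lists were named where they had a region with both factors in DP cells, and the 3 genes most like each of the 6 by Pearson's r. Alternatives were a peak of any or of all libraries, flanks of 20 and 100 kb, the stronger 50% of peaks, equal peak numbers, an overlap of 50% of the shorter peak, ranks by total signal, and each library left out in turn.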

Additional observations from a re-analysis of the deposited data

Results flagged for a closer look

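The H3K4me1 and H3K27ac libraries of experiment B whose labels name different sorted populations entered no comparison, and both hold peaks at the 6 genes. The H3K4me1 library had 90 peaks in the 6 windows, from 6 at Ankrd1 to 24 at Fat1, and covered 6.95% to 31.7% of a window against 5.72% of the genome. The H3K27ac library had 25, of which 10 lay at Fat1, covering 10.4% of its window and 9.69% of that of Ccn2 against 1.35% of the genome, but only 1.25% at Amotl2 and 1.05% at Ankrd1. Both marks lay at a start site of Fat1, Amotl2, Tead4, Ccn1 and Ccn2 and neither at that of Ankrd1. Both covered Fat1 +44 kb, Fat1 +58.1 kb and Ccn2 -4.71 kb, while at Ccn1 -1.62 kb only H3K4me1 did. Because the population of these libraries is not known, their values were not set against those of the labelled DP or SOX2+ libraries.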

How the results depend on the processing

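No paired analysis was possible because the genes were chosen with these peaks known, other than a description. The SOX2 libraries of DP and SOX2+ cells share experiments A, A1 and B, and their values are set side by side in the text. Of 64 alternative counts of regions at the 6 genes, 45 stayed within 1.5 times the value reported. Flanks of 20 or 100 kb and an overlap of 50% moved none of the counts past that limit. With a peak of any library sufficing, there were 7 DP GATA6, 44 nEnd GATA6 and 38 NACL SOX2 regions. With peaks of all libraries required, there were 2 DP GATA6 and 13 SOX2+ SOX2 regions. With the stronger 50% of each list there were 2 DP GATA6, 16 nEnd GATA6, 11 SOX2+ SOX2 and 11 NACL SOX2 regions. With equal peak numbers (1378 for SOX2 and 1391 for GATA6) there were 4 SOX2 regions in each of DP, SOX2+, 2iLIF and NACL cells, 2 GATA6 regions in DP cells and 3 in nEnd. Leaving out 1 library at a time gave 5 to 7 DP SOX2, 2 to 4 DP GATA6, 13 to 20 SOX2+ SOX2 and 2 to 3 DP regions with both factors. For 2iLIF, NACL and nEnd, with 2 libraries each, leaving 1 out allows no region of 2 libraries. Ranked by total instead of max signal, 6 of 17 mean positions of Ccn2 -4.71 kb, Fat1 +44 kb and Ccn1 -1.62 kb moved by more than 1 SD, and none of the 6 was of Ccn2 -4.71 kb or of DP cells at Fat1 +44 kb, where the SD was larger than the mean. Read depth is unknown, so a missing peak means not listed rather than not bound.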
